A study of Mus musculus with 12 samples.

Results

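The data are 5 genes that encode chemokines acting on lymphocytes and receptors that remove chemokines. They are Cxcl10, Cxcl12 and Cxcl16, which encode ligands, and Ackr3 and Ackr4, which encode scavenging receptors. They were taken by gene symbol from the 14907 genes listed in the 4 deposited tables, and all 5 had values in all 12 libraries. The symbols were chosen with the levels of these genes in the same libraries already known, so their levels and the differences between groups are a description here and support nothing by themselves.

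The libraries came from primary mesenchymal cells of the small intestine of C57/Bl6 mice, cultured to passage 3 and sorted on GFP. There were 4 groups of 3 libraries. MyD88ko cells carried the label ColVIcre-MyD88F/F-RosamTmG and were either given 2 µg/ml of LPS from E. coli for 6 hours (MyD88ko with LPS) or not (MyD88ko untreated). Wild-type cells, labelled MyD88F/F-RosamTmG, formed the groups wt with LPS and wt untreated. By the labels, all groups had floxed Myd88 alleles, the mTmG reporter and overnight serum starvation. The design text calls the wt cells Cre-positive and their genotype label holds no Cre. If the label is right, Cre and the loss of Myd88 cannot be told apart in the genotype comparisons. Cre is driven by a collagen VI promoter, which is active in mesenchymal cells. The labels do not say whether replicates came from separate animals, so every spread given is a spread between libraries and may be technical.

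Chemokines are small secreted proteins that guide leukocytes along concentration gradients. CXCL10 attracts activated T cells and NK cells through CXCR3, CXCL12 retains or attracts lymphocytes and progenitors through CXCR4, and CXCL16 is made as a membrane-bound protein that can be shed and that binds CXCR6. Atypical chemokine receptors bind ligands without coupling to G proteins and take them into the cell, which lowers or shapes the gradient. ACKR3 removes CXCL12, and ACKR4 removes CCL19, CCL21 and CCL25. LPS is sensed by TLR4, which signals through the adaptor MyD88 and, from endosomes, through the adaptor TRIF. The TRIF arm leads to type I interferon, and both arms reach NF-κB.

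Values are the authors' normalized read counts per gene from 3′ libraries, rounded to whole numbers. The libraries were estimated to hold 2.50 to 5.30 megareads counted to genes. Myd88, the targeted gene, had 24, 22 and 5 counts in MyD88ko with LPS, against 171, 204 and 213 in wt with LPS. Without LPS the counts were 14, 8 and 10 in MyD88ko, against 99, 98 and 103 in wt, so every library fits its genotype label. All 8 mesenchymal markers were listed in all libraries, and their summed values were 121184 to 126699, 82125 to 98788, 62846 to 105173 and 39421 to 92288 in MyD88ko with LPS, MyD88ko untreated, wt with LPS and wt untreated. Between genotypes, limma called 1 of the 8 with LPS and 1 untreated, in both cases Pdgfra, a fibroblast receptor gene, which averaged 129 in MyD88ko against 451 in wt with LPS, and 119 in MyD88ko against 427 in wt untreated. Col1a1, Col1a2 and Vim had higher means in MyD88ko than in wt in both comparisons (53850 against 32870, 21400 against 13270 and 9402 against 4996 untreated) and were not called. With LPS, the means in MyD88ko were 264 against 488 in wt for Col6a1 and 136 against 202 for Col6a2. For Pdgfrb they were 718 against 529, and none of these was called. In wt, Col6a1 averaged 488 with LPS and 242 untreated and was not called. With LPS in wt, 1 of the 8 was called, Pdgfrb, at a mean of 529 with LPS against 1154 untreated. In MyD88ko 0 were called with LPS. Between genotypes with LPS, 6 of the 8 had an unadjusted limma p under 0.05, as did 1486 of 12385 genes. Untreated, 4 of the 8 did (1923 of all genes). For LPS against untreated, 3 of the 8 did in wt (3966 of all genes) and 1 in MyD88ko (2600). Of 8 T and B cell markers only Cd3d was listed, at 3 to 20. The 3 macrophage markers with values in all libraries summed to 14 to 45. Of 8 endothelial markers 2 had values in all libraries, and these summed to at most 47. Prox1, a lymphatic marker among them, had 5, 0 and 0 counts in MyD88ko with LPS, against 14, 10 and 6 in MyD88ko untreated. In wt it had 19, 28 and 19 with LPS, against 12, 15 and 21 untreated. It was called lower in MyD88ko with LPS than in MyD88ko untreated and than in wt with LPS. Of 8 epithelial markers 4 had values in all libraries. Replicates 1, 2 and 3 of wt untreated had sums of 393, 13 and 196, and no other library exceeded 27. Cdh1 and Krt18, without values in some libraries, had 719 and 68 in wt untreated replicate 3 and at most 3 in the others where they were listed. The 8 mesenchymal markers summed to 47670, 92288 and 39421 in replicates 1, 2 and 3 of wt untreated. In replicates 1, 2 and 3 of wt with LPS they summed to 62846, 105173 and 65449. Replicate 2 was thus highest there too, with epithelial sums of 27, 21 and 27. All untreated libraries have lower library codes than all LPS libraries, so treatment and the series of library codes cannot be told apart. Within each treatment, all MyD88ko libraries have lower codes than all wt libraries. Genotype and the order of the codes are therefore also confounded. In such bulk libraries, fewer cells of a type and less RNA per cell cannot be told apart either.

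Differences between groups are on the log2(value + 1) scale, from a limma fit of all 12 libraries over 12385 genes, and are given with a standard error. A gene was called where its p, adjusted over all tested genes by the method of Benjamini and Hochberg, was below 0.05. All 5 members passed the filter on low values, which asked for a group mean of 10 or more in any group. In wt cells 4 of the 5 were called between LPS and untreated, where 19.2% of all genes were called. Between MyD88ko with LPS and MyD88ko untreated 1 of the 5 was called, against 5.98% of all genes. The genotype comparison with LPS called 2 of the 5 (1.49% of all genes, 0.452% higher and 1.04% lower) and the untreated one 1 of the 5 (1.88%, 0.791% higher and 1.09% lower). The difference between both LPS responses called 1 of the 5, where 0.0161% of all genes were called, 0.00807% in each direction. Since the members were chosen from these contrasts, nothing is read from these counts. The median log2 difference over the 5 members was 0.03 with LPS in MyD88ko (0.00 over all genes) and 0.47 with LPS in wt (0.01 over all genes). It was -0.71 between genotypes with LPS, -0.76 untreated and 0.36 for the difference of responses, where the median over all genes was 0.00.

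**Figure D1:**
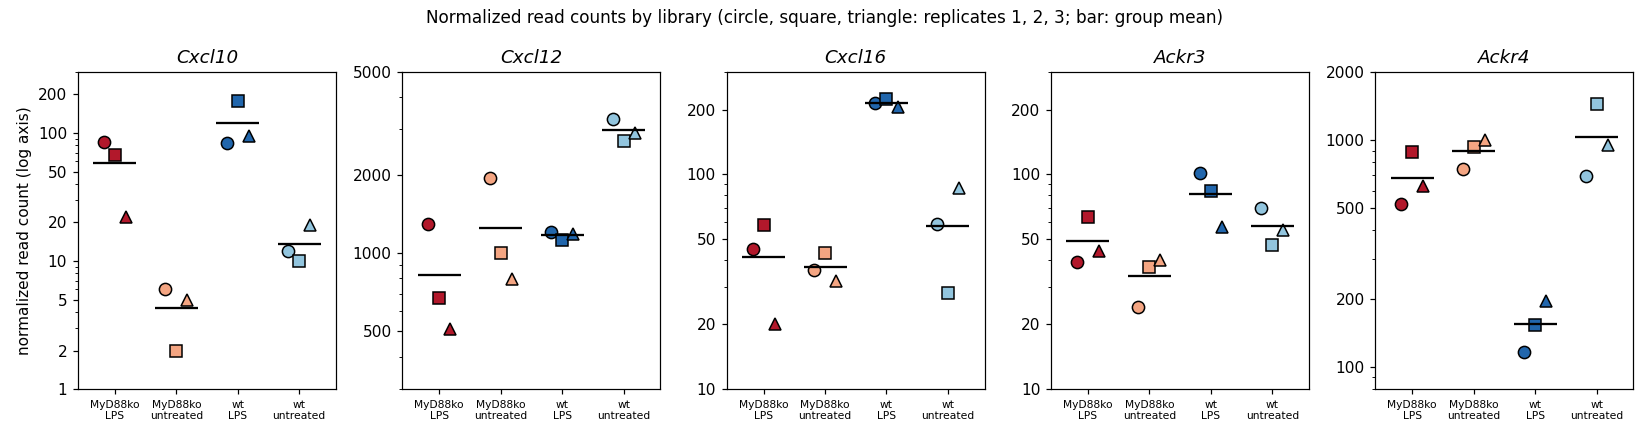
Normalized read counts (vertical log axes, each with its own range) of the 5 genes in the 12 libraries, with the 4 groups side by side. Each symbol is a library and each bar a group mean. Ackr4 lies between 117 and 196 in wt with LPS and at 523 or more in all other libraries, whereas Cxcl16 is above 200 in wt with LPS and at most 86 elsewhere.

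Cxcl10 was far higher with LPS in both genotypes. The gene (ENSMUSG00000034855) lies on the minus strand of mouse chromosome 5 at chr5:92346638-92348889 (mm10). The normalized counts were 85, 67 and 22 in MyD88ko with LPS, against 6, 2 and 5 in MyD88ko untreated. They were 84, 177 and 95 in wt with LPS, against 12, 10 and 19 in wt untreated. The lowest LPS library was above the highest untreated library across both genotypes. LPS minus untreated was 3.35 ± 0.51 (log2, SE) in MyD88ko cells and 3.00 ± 0.51 in wt cells, and both were called. These are 10.2-fold and 7.98-fold differences. The untreated MyD88ko counts rest on about 7, 2 and 6 reads, so the size of the first fold depends on the pseudocount: the log2 difference was 2.61 with a pseudocount of 5.

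Between genotypes Cxcl10 was called in no comparison. The MyD88ko response to LPS minus the wt response was 0.36 ± 0.72 (log2, 95% interval -1.31 to 2.03), which leaves room for a difference in either direction. Untreated, Cxcl10 averaged 4.33 ± 2.08 in MyD88ko and 13.7 ± 4.73 in wt (SD, n = 3 each), without overlap, and the difference of -1.50 ± 0.51 was not called. With LPS the groups averaged 58 ± 32.5 in MyD88ko and 119 ± 50.8 in wt (SD, n = 3 each) and overlapped. MyD88ko with LPS replicate 3 was the lowest LPS library for Cxcl10, and without it the genotype difference with LPS was -0.57 in place of -1.14. In order of group means, Cxcl10 was lowest in MyD88ko untreated, then wt untreated, MyD88ko with LPS and wt with LPS, and of the neighbours in this order only the last pair overlapped. Art3, on the opposite strand across Cxcl10, had at most 17 in any library. The sources used here do not say whether counting used strand.

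The 250 bases before the start of Cxcl10 are shown because this gene had higher counts with LPS in both genotypes, and because interferon and NF-κB sites are known to drive it. The sequence is that of RefSeq on GRCm38.p6, minus strand, chr5:92348890-92349139, with the matches in capitals.

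Cxcl10: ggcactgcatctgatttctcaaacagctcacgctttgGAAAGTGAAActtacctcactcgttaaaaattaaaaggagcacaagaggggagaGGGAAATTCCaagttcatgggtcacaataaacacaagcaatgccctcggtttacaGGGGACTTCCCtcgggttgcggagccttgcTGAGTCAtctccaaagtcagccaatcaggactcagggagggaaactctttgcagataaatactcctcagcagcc

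From 5′ to 3′ the capitals mark a match to the interferon-stimulated response element 213 to 204 bases before the start, a κB consensus match at 159 to 150, overlapping κB consensus matches between 104 and 94, and an AP-1 match (TGANTCA) at 74 to 68. The search covered 300 bases, 250 before and 50 after the start, on both strands, and included the gamma-interferon activation site TTCNNNGAA. Among 32851 promoters of this length in the table, 8.46% held the κB consensus, 3.44% the response element, 7.81% the AP-1 site and 8.3% the activation site. Promoters were found for 4 of the 5 members, and Cxcl12, Ackr3 and Ackr4 had 0 matches to any of the 4 motifs in this window. For Ackr4 the RefSeq start lies inside the gene interval of the deposited tables, so its window is not upstream of the start given there. A match is a run of letters and not a binding event.

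Cxcl16, the gene of the membrane-bound ligand of CXCR6, was higher with LPS in wt cells and was not called with LPS in MyD88ko cells. It (ENSMUSG00000018920) lies on the minus strand at chr11:70453983-70459984. The counts were 45, 58 and 20 in MyD88ko with LPS, against 36, 43 and 32 in MyD88ko untreated. In wt cells they were 216, 224 and 205 with LPS, against 59, 28 and 86 untreated. The 3 wt LPS libraries stood above all 9 others, which overlapped with each other across groups. LPS minus untreated was 0.03 ± 0.39 in MyD88ko (log2, SE, 95% interval -0.87 to 0.93), which was not called, and 2.02 ± 0.39 in wt, a 4.05-fold difference that was called.

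With LPS, Cxcl16 averaged 41 ± 19.3 in MyD88ko and 215 ± 9.54 in wt (SD, n = 3 each), a difference of -2.49 ± 0.39 that was called. Untreated it averaged 37 ± 5.57 in MyD88ko and 57.7 ± 29.0 in wt, which overlapped. The difference between both LPS responses was -1.99 ± 0.55 (95% interval -3.26 to -0.72) and was not called over all genes. Within wt untreated, replicate 2 was lowest for Cxcl16 and lowest for epithelial markers, and the part of those markers in the Cxcl16 values was not tested. Without wt untreated replicates 1 and 3 the wt response was 2.90, with 1 wt untreated library left. The untreated genotype difference was then 0.38 in place of -0.50. These replicates had the higher Cxcl16 counts of the group, so leaving them out had to raise both values. Zmynd15, which overlaps the start of Cxcl16 on the other strand, had at most 10 in the libraries where it was listed.

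Cxcl12, the gene of the CXCR4 ligand that mesenchyme makes in many organs, was lower with LPS in wt cells and lower in untreated MyD88ko cells than in untreated wt cells. It (ENSMUSG00000061353) lies on the plus strand at chr6:117168535-117181367. The counts were 1297, 674 and 509 in MyD88ko with LPS, against 1957, 1006 and 794 in MyD88ko untreated. In wt cells they were 1206, 1129 and 1186 with LPS, against 3284, 2718 and 2920 untreated. Every wt untreated library was above all 9 others. LPS minus untreated was -0.60 ± 0.31 (log2, SE, 95% interval -1.32 to 0.12) in MyD88ko, which was not called. In wt it was -1.34 ± 0.31, a 2.53-fold lower level with LPS that was called.

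Untreated, Cxcl12 averaged 1252 ± 619 in MyD88ko and 2974 ± 287 in wt (SD, n = 3 each), a difference of -1.35 ± 0.31 that was called. With LPS the averages were 827 ± 416 in MyD88ko and 1174 ± 40.0 in wt, and the groups overlapped (-0.62 ± 0.31, not called). Replicate 1 was the highest Cxcl12 library in both MyD88ko groups, and the SD within these groups was wider than within the wt groups. Of the mesenchymal markers, Pdgfra was lower in MyD88ko and Pdgfrb lower with LPS in wt, whereas Col1a1, Col1a2 and Vim had higher means in MyD88ko. With LPS, Col6a1 and Col6a2 had lower means in MyD88ko than in wt and Pdgfrb a higher one, none called. The part of these markers in the Cxcl12 differences was not tested. Leaving out MyD88ko untreated replicate 1 moved the untreated genotype difference to -1.73, and the call was lost without MyD88ko untreated replicate 2 (-1.25) or 3 (-1.08) and without wt untreated replicate 1 (-1.28) or 3 (-1.36). It was also lost without wt with LPS replicate 1, which entered only through the shared spread. Without wt untreated replicates 1 and 3 together neither the wt response (-1.21) nor the untreated genotype difference (-1.23) was called, with 1 wt untreated library left. These replicates had the higher Cxcl12 counts of the group, so leaving them out had to shrink both differences. The difference between both LPS responses was 0.73 ± 0.44 (95% interval -0.28 to 1.75) and was not called.

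Ackr4, the gene of the receptor that removes CCL19, CCL21 and CCL25, was much lower with LPS in wt cells, and was not called in MyD88ko cells. The gene (ENSMUSG00000079355) lies on the minus strand at chr9:104084157-104126933. The counts were 523, 890 and 629 in MyD88ko with LPS, against 743, 932 and 1003 in MyD88ko untreated. In wt cells they were 117, 153 and 196 with LPS, against 698, 1441 and 950 untreated. The 3 wt LPS libraries were below all 9 others, and those 9 overlapped across their groups. LPS minus untreated was -0.41 ± 0.27 (log2, SE, 95% interval -1.03 to 0.20) in MyD88ko, which was not called, and -2.69 ± 0.27 in wt, a 6.45-fold lower level with LPS that was called.

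With LPS, Ackr4 averaged 681 ± 189 in MyD88ko and 155 ± 39.6 in wt (SD, n = 3 each), so MyD88ko cells had 4.35-fold more, a difference of 2.12 ± 0.27 that was called. Untreated it averaged 893 ± 134 in MyD88ko and 1030 ± 378 in wt, with overlap (-0.15 ± 0.27, 95% interval -0.77 to 0.46, not called). The MyD88ko response minus the wt response was 2.27 ± 0.38 (95% interval 1.40 to 3.15), since the fitted decrease with LPS was smaller in MyD88ko. Of 12385 genes, limma called 2 in this difference of responses, and 1137 had an unadjusted p under 0.05. The called genes were Ackr4 and Selenom, a selenoprotein named here after its values were seen. The size of the Ackr4 difference ran from 2.00 to 2.82 over 21 alternatives, but 11 of them did not call it. These were a filter at a mean of 50, a pseudocount of 0.5, limma without trend, and the fits without any single MyD88ko library or without wt with LPS replicate 1 or 2.

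Within wt untreated, Ackr4 was highest in replicate 2, the library with the most mesenchymal and the fewest epithelial counts. Without replicates 1 and 3 the wt response was -3.24 and the difference of responses 2.82, both called, with 1 wt untreated library left. These replicates had the lower Ackr4 counts of the group, so leaving them out had to widen both values. In wt with LPS, replicate 2 also had the most mesenchymal counts of its group, and Ackr4 was highest in replicate 3. The part of the epithelial and mesenchymal counts in the Ackr4 values was not tested. Acad11, a gene that spans Ackr4 on the other strand, averaged 80.7 ± 9.07 in MyD88ko with LPS against 134 ± 8.19 without, and in wt 81.7 ± 12.5 with LPS against 201 ± 17.7 without (SD, n = 3 each). Acad11 was called lower with LPS in wt (-1.30 ± 0.23 log2) and not in MyD88ko (-0.73 ± 0.23), and it differed by -0.01 ± 0.23 between genotypes with LPS. Whether reads of one entered the other was not tested.

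Ackr3, the gene of the CXCL12-scavenging receptor, was called in none of the comparisons. It (ENSMUSG00000044337) lies on the plus strand at chr1:90203980-90216751. The counts were 39, 63 and 44 in MyD88ko with LPS, against 24, 37 and 40 in MyD88ko untreated. In wt cells they were 101, 84 and 57 with LPS, against 70, 47 and 55 untreated. LPS and untreated groups overlapped in both genotypes, with differences of 0.52 ± 0.33 in MyD88ko and 0.47 ± 0.33 in wt (log2, SE), neither called. MyD88ko untreated libraries were all below wt untreated libraries, at means of 33.7 ± 8.50 in MyD88ko and 57.3 ± 11.7 in wt (SD, n = 3 each), and this difference of -0.76 ± 0.33 was not called. With LPS the means were 48.7 ± 12.7 in MyD88ko and 80.7 ± 22.2 in wt, with overlap (-0.71 ± 0.33, not called). The 95% interval of the difference between both LPS responses was -1.02 to 1.13 around 0.06, an interval that holds differences of either sign.

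**Figure D2:**
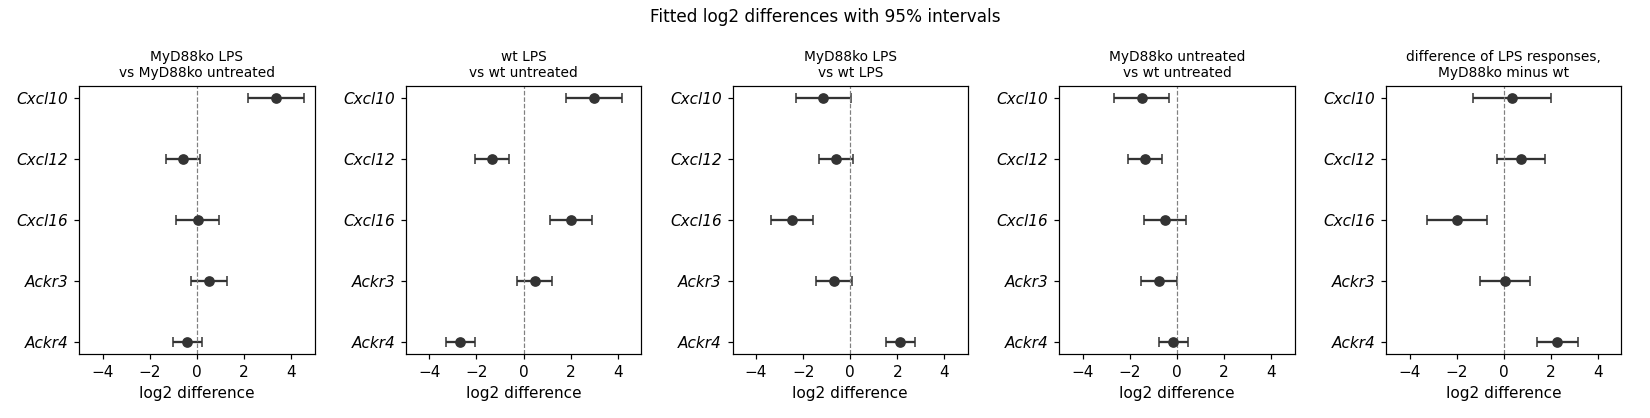
Fitted log2 differences (horizontal axes) of the 5 genes in the 4 comparisons of groups and in the difference between both LPS responses, with 95% intervals on 8 residual degrees of freedom. Cxcl10 is positive with LPS in both genotypes, at 3.35 and 3.00, whereas Ackr4 is at -0.41 in MyD88ko and -2.69 in wt and Cxcl16 at 0.03 and 2.02.

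Because CXCL12 is a ligand that ACKR3 removes, the count of Cxcl12 over that of Ackr3 was taken within each library. It is a ratio of counts, not of molecules or proteins, and is compared between libraries only. The ratio was 33.3, 10.7 and 11.6 in MyD88ko with LPS, against 81.5, 27.2 and 19.9 in MyD88ko untreated. It was 11.9, 13.4 and 20.8 in wt with LPS, against 46.9, 57.8 and 53.1 in wt untreated. In wt cells the LPS and untreated ratios did not overlap, and in MyD88ko cells they did. Replicate 1 was the highest in both MyD88ko groups, as for Cxcl12.

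**Figure D3:**
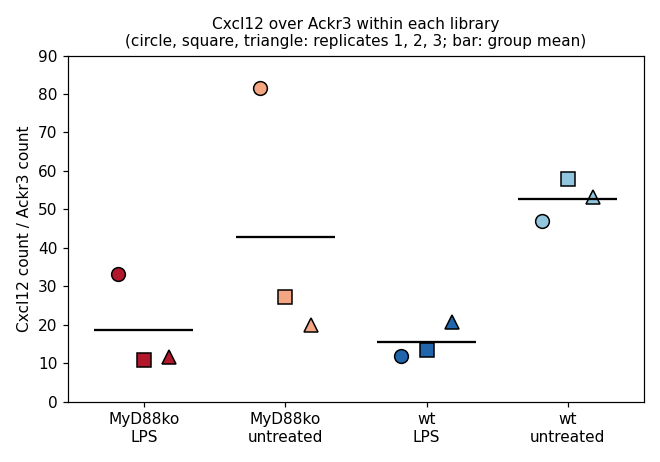
Cxcl12 count divided by Ackr3 count within each of the 12 libraries (vertical axis, linear from 0), by group, with the group mean as a bar. The wt LPS libraries lie between 11.9 and 20.8 and the wt untreated libraries between 46.9 and 57.8, whereas MyD88ko untreated spans 19.9 to 81.5.

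Genes that act with these members were taken from 6 lists of 46 genes, of which 26 could be tested. The signalling receptors of the 3 ligands, Cxcr3, Cxcr4 and Cxcr6, were not listed under these symbols. Nor were Ccr7 and Ccr9, the receptors for the ligands of ACKR4. Of 10 other lymphocyte chemokines 3 were tested, among them Ccl25, an ACKR4 ligand of the small intestine, which had 3 to 32 counts over the 12 libraries and was not called. Of 7 signalling receptors only Cx3cr1, the receptor for CX3CL1, was tested. It had 4, 0 and 1 counts in MyD88ko with LPS, against 4, 0 and 5 in MyD88ko untreated, and 6, 5 and 24 in wt with LPS, against 1, 0 and 4 in wt untreated, and was not called. None of 3 other atypical receptors was tested, with Ackr1 at most 16 and Ccrl2 at most 10.

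In wt cells 5 of the 26 tested genes rose with LPS and 0 fell, beside 9.55% higher and 9.66% lower among all genes, and the median log2 difference was 0.39 against 0.01 over all genes. In MyD88ko cells 2 rose and 0 fell (2.58% and 3.4% of all genes), with a median of 0.29 against 0.00. Cx3cl1, which encodes a membrane-bound chemokine like Cxcl16, rose in both genotypes. Its counts were 68, 63 and 87 in MyD88ko with LPS, against 29, 19 and 30 in MyD88ko untreated (1.46 ± 0.40 log2, SE, limma adjusted p = 0.0355). In wt they were 91, 156 and 39 with LPS, against 23, 21 and 24 untreated (1.82 ± 0.40, limma adjusted p = 0.00356). Ccl5, another T cell chemokine, had a mean of 10 in MyD88ko with LPS against 4.33 untreated and 29 in wt with LPS against 8.33 untreated, and was not called.

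Of 5 genes of shedding and cleavage 4 were tested. Adam17, a protease that sheds CXCL16, rose with LPS in wt cells, at 682, 733 and 1030 with LPS against 342, 426 and 561 untreated (0.88 ± 0.27 log2, limma adjusted p = 0.0275). In MyD88ko it had 691, 481 and 299 with LPS against 376, 299 and 392 untreated (0.39 ± 0.27, adjusted p = 0.438 by limma). Adam10, the other main sheddase of CXCL16, was not called in either genotype, with means of 235 with LPS against 294 untreated in MyD88ko and 210 with LPS against 296 untreated in wt. Of 7 arrestin, kinase and adrenomedullin genes 6 were tested. Grk2, a kinase that phosphorylates chemokine receptors, rose in wt cells, with means of 352 with LPS and 182 untreated (0.97 ± 0.23, limma adjusted p = 0.00572), and had 319 and 224 in MyD88ko (0.48 ± 0.23, not called). Adm, the gene of adrenomedullin, which ACKR3 also binds, was not called in either genotype.

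Of 12 tested genes of interferon induction and signalling, 2 rose with LPS in wt and 1 in MyD88ko, and 0 fell. Ticam1, which encodes TRIF, averaged 73 with LPS and 28.7 untreated in wt (1.29 ± 0.33 log2, limma adjusted p = 0.00836). Ifngr1, a chain of the interferon-γ receptor, averaged 176 with LPS and 82.7 untreated in wt (1.08 ± 0.25, limma adjusted p = 0.00433). Irf1, a transcription factor upstream of Cxcl10, rose in MyD88ko, with means of 191 with LPS and 102 untreated (0.87 ± 0.25, limma adjusted p = 0.0388). In wt Irf1 averaged 216 with LPS and 168 untreated and was not called. Ifnb1, the interferon-β gene, was not listed under this symbol.

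Between genotypes with LPS, limma called 0 of the 26 genes, beside 1.49% of all genes. At an unadjusted limma p under 0.05 there were 4 of the 26, beside 1486 of all 12385 genes. Untreated, 0 were called (1.88% of all genes) and 4 had such a p (1923 of all genes). In the difference between both LPS responses 0 were called (0.0161% of all genes) and 1 had such a p (1137 of all genes). Calls made in one genotype only are therefore not shown to differ between genotypes. Without wt untreated replicates 1 and 3, which leaves 1 wt untreated library, the wt calls of Cx3cl1, Adam17, Ticam1 and Ifngr1 were lost (limma adjusted p 0.0561 to 0.229). Their log2 differences were then 1.92, 0.91, 0.95 and 1.02. Of single libraries, leaving out any of the 6 MyD88ko libraries lost the MyD88ko call of Cx3cl1 (limma adjusted p 0.0665 to 0.145). Its log2 difference then lay between 1.26 and 1.58. The same held for Irf1 (0.73 to 0.93) except without MyD88ko with LPS replicate 2. In wt the call of Adam17 was lost without wt untreated replicate 1 or 2 or wt with LPS replicate 3, and Ticam1 without wt with LPS replicate 1. Limma without trend lost the calls of Cx3cl1 (adjusted p = 0.0788) and Irf1 (adjusted p = 0.0854) in MyD88ko and of Adam17 (adjusted p = 0.0862) in wt, and with only the groups compared Irf1 was lost (limma adjusted p = 0.061).

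For each member the 3 protein-coding genes whose log2 values followed it most closely over the 12 libraries were ranked among 7925 genes. Pearson r is a description over libraries that share their 4 groups, so it holds the differences between groups. Cxcl16 was followed by Sod2, a mitochondrial superoxide dismutase (r = 0.97), Fam43a (0.94) and Cebpd, a transcription factor of the acute-phase response (0.93). Sod2 averaged 396 in MyD88ko with LPS, 353 in MyD88ko untreated, 1203 in wt with LPS and 515 in wt untreated, so it too stood out in wt with LPS. Cxcl10 was followed by Hmox1, haem oxygenase 1 (0.95), Tkt, the transketolase of the pentose phosphate pathway (0.93), and the monocyte chemokine gene Ccl2 (0.93). Hmox1 averaged 242 with LPS and 109 untreated in MyD88ko, and 440 with LPS and 140 untreated in wt.

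Cxcl12 was followed by Cd1d1, which presents lipids to NKT cells (r = 0.93), Fabp4, a fatty acid binding protein (0.93), and Tspan7, a tetraspanin (0.93). Fabp4 averaged 12 in MyD88ko with LPS, 33.7 in MyD88ko untreated, 48.7 in wt with LPS and 200 in wt untreated, so like Cxcl12 it was highest in wt untreated. Ackr4 was followed by Rflnb, refilin B, a filamin-binding protein (0.94), Me1, a malic enzyme (0.91), and Slc7a7, an amino acid transporter (0.91). Rflnb averaged 2526 and 3547 in MyD88ko with and without LPS and 972 and 2816 in wt with and without LPS. Ackr3 had the loosest companions, Rtn4rl2 (0.90), Dcaf7 (0.89) and the neutrophil chemokine gene Cxcl5 (0.88).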

How the data were processed

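The values are normalized read counts per gene from 12 QuantSeq 3′ libraries sequenced on the Ion Proton. Per the submitters' processing notes, TopHat2, Bowtie2, DESeq and the genome build mm10 were used, without versions or roles. The authors deposited 4 tables of 6 samples each, whose expression values are scores in the sense used here, counts that the authors normalized between libraries and then rounded. Of 166719 comparisons of a value between tables, 0 differed. A further 48 per-sample columns of other scales were not used. Totals of the normalized values were 3599944 to 4320551. Size factors, estimated from the pattern that rounding leaves among low values and checked on simulated data, were 0.634 to 1.29. They give 2.50 to 5.30 megareads. No molecular identifiers were described, so repeated reads of the same molecule could not be told apart. The spread of read numbers may therefore exceed counting error.

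Groups were taken from the sample titles. Values were analysed as log2(value + 1) in limma 3.58.1 (R 4.3.3), with trend and robust empirical Bayes in 1 fit of all 12 samples (8 residual degrees of freedom). Tested genes, 12385 of them, had no missing value and reached a group mean of 10 in any group. The fit was tested on simulated data. The members and lists were chosen with earlier results of these data known. A listed gene is not reported here and was left out of the list counts, not out of the fit. Named genes were the 5 members, Myd88, list members called with the smallest p (up to 4 per list and comparison), Cxcr3, Cxcr4, Cxcr6, Adam10 and Adam17, and the 3 protein-coding genes most like each member among genes with a mean of at least 50. Promoters came from RefSeq (GRCm38.p6). Figures were drawn with matplotlib 3.10.9.

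Alternatives were a rescaling by trimmed means, quantile normalization, no filter, a mean of at least 50, pseudocounts of 0.5 and 5, limma without trend, only the groups compared, a replicate block, each library left out, and wt untreated replicates 1 and 3 left out together.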

Additional observations from a re-analysis of the deposited data

Results flagged for a closer look

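The response of Ackr4 to LPS differed between the genotypes by 2.27 on the log2 scale (MyD88ko minus wt), and the limma test of that difference over all genes called it. The gene was chosen with these values known, and 11 of 21 alternatives did not call it. No other member or listed pathway gene was called in that test.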

How the results depend on the processing

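Limma called 741 genes with LPS in MyD88ko, 2380 with LPS in wt, 185 between genotypes with LPS, 233 between genotypes untreated and 2 in the difference between both LPS responses. Limma without trend called 425, 112 and 74 in the first, the third and the fourth of these and 0 in the difference. The difference had 4 calls with quantile normalization, 0 with a filter at a mean of 50 and 0 with a pseudocount of 0.5, against 1137 genes at an unadjusted p under 0.05 as first fitted. Without wt untreated replicates 1 and 3 together there were 973 calls with LPS in wt, 36 between genotypes untreated and 14 in the difference. Leaving out 1 library at a time gave 337 to 791, 1570 to 2722, 85 to 196, 64 to 416 and 0 to 44 calls in the order above. With the replicate number as a block the calls were 763, 2389, 206, 278 and 2. The numbers were not shown to pair the samples. Correlations were taken on log2 values after the group mean of each gene was subtracted, so they hold only differences within groups. Same-numbered samples then correlated at -0.114 to 0.171. Of 12 samples, 1 correlated best with its own number in every other group, and 19 of 36 comparisons were best with the own number. Between wt with LPS and wt untreated, same-numbered pairs (0.058 to 0.171) were above all others (-0.104 to 0.043).

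Over all alternatives the 5 members had 545 values, of which 511 kept direction and call, 19 lost a call and 15 uncalled ones changed sign. No called value changed sign. The lost calls were those of Cxcl12 between genotypes untreated (7 of 22 alternatives), Cxcl12 with LPS in wt (1 of 22) and the difference of responses of Ackr4 (11 of 21). The other named genes lost 39 calls and gained 27. Depth limits Cxcl10 most, since its untreated counts rest on few reads.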
